A study of Homo sapiens with 6 samples.

Results

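The 48 protein-coding genes whose symbols name proteasome subunits and their dedicated regulators (PSMA, PSMB, PSMC, PSMD, PSME, PSMF and PSMG followed by a number) were followed through the loss of RAVER1 in A549 cells. They were picked by symbol and gene type alone, out of 60624 genes in the table, and 46 of them had enough reads to be tested. A549 is an established line of human lung carcinoma cells, and RAVER1 is an RNA-binding protein known as a partner of the splicing regulator PTBP1. The parental group held 3 libraries of unmodified cells. The knockout group held 3 libraries from A549 carrying a CRISPR/Cas9 deletion of RAVER1. Their titles share the label KO2, and whether that marks 1 clone is not stated. No treatment, time or selection beyond the genotype is given for either group.

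The proteasome is the barrel-shaped protease that degrades ubiquitin-tagged proteins. Its 20S core stacks rings of alpha subunits, which gate the entrance, on rings of beta subunits, of which PSMB5, PSMB6 and PSMB7 carry the cutting sites. The 19S cap has a base of ATPases that unfold substrates and a lid that removes ubiquitin. Interferon and leukocyte differentiation swap the catalytic subunits for PSMB8, PSMB9 and PSMB10, forming the immunoproteasome, and caps of the PSME family can replace the 19S cap. When proteasomes are inhibited, the transcription factor NFE2L1 is known to raise most subunit genes together.

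Library totals ran from 29811747 to 39910127 counts, and the members took 0.763% to 0.774% of them in every library. RAVER1 itself fell from 69.7 to 2.73 CPM (read counts scaled to a common library size with TMM factors), the direction its labels give. The epithelial keratins KRT8 and KRT18 stood at 3761 and 2844 CPM in parental cells and were lower in knockout cells (edgeR log2 fold changes of -0.73 and -0.94). KRT19, EPCAM and CDH1, at lower levels, fell further (-1.89, -1.70 and -2.20). The 5 epithelial markers read, all lower, summed to 6612 to 7247 CPM in parental and 3560 to 4116 CPM in knockout libraries, and the part of this shift in the values below was not tested. Over all 16652 genes tested with edgeR's quasi-likelihood test, 41.4% were past an adjusted p of 0.05, with 21.3% higher and 20.1% lower in knockout cells. In bulk RNA, a change in the share of cells that express a gene and a change in RNA per cell cannot be told apart.

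Most proteasome genes kept close to their parental level. Of the 46 tested, 10 were higher and 5 lower in knockout cells, and 31 were not past the threshold. That is 21.7% higher and 10.9% lower, beside the background of 21.3% and 20.1% given above. Sizes were small: the median log2 fold change of the members was -0.0068 and their median absolute value 0.070, against 0.0019 and 0.192 over all tested genes. The groups did not overlap for 20 of the 46 members, against a background of 50.2%. Among the 31 genes that were not past the threshold, 27 had an approximate 95% interval (from the SE) that stayed within 0.2 of 0, a change of at most 1.15-fold. PSMB3, PSMA2, PSMG4 and PSMB8 had wider intervals.

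**Figure D1:**
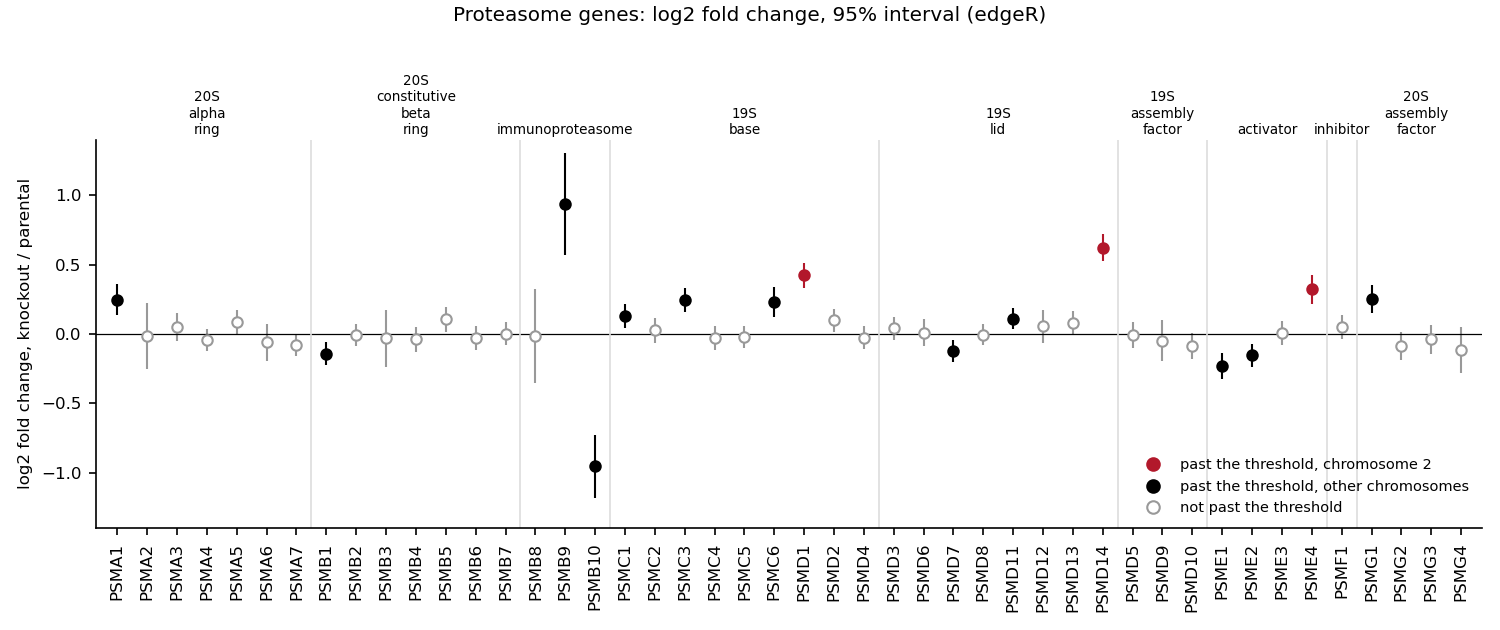
Log2 fold change of knockout over parental cells for the 46 tested proteasome genes, grouped by role, with bars for the 95% interval from edgeR. Filled points are past an adjusted p of 0.05, and red marks the 3 genes on chromosome 2. PSMB9 (0.94) and PSMB10 (-0.96) lie farthest from 0, in opposite directions.

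The constitutive subunits of the 20S core changed little. Of 14 tested constitutive core genes 1 was higher and 1 lower, with a median of -0.023, or 14.3% called beside the background of 41.4%. In the alpha ring, PSMA1 had 29.4, 30.0 and 28.3 CPM in parental replicates 1, 2 and 3 and 34.2, 34.4 and 35.4 CPM in knockout replicates 1, 2 and 3. PSMA1 therefore sat above every parental library in each knockout library, a rise of 0.25 on the log2 scale (SE 0.056, edgeR adjusted p 0.00157). The other 6 tested alpha genes ranged from -0.079 (PSMA7) to 0.087 (PSMA5), none past the threshold with edgeR's main settings or DESeq2, though PSMA7 passed with upper-quartile scaling (-0.11, adjusted p 0.0375). PSMA8, the alpha subunit of testis, had a count of 0 in all 6 libraries.

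Among the constitutive beta genes, PSMB1, a non-catalytic subunit, had 130, 124 and 128 CPM in parental cells and 114, 117 and 114 CPM in knockout cells. It fell by 0.14 (SE 0.043, edgeR adjusted p 0.0111), with no overlap between groups. The call was lost without parental replicate 1 (adjusted p 0.0556) or knockout replicate 3 (0.0602). PSMB5, which cuts after hydrophobic residues, had 274, 250 and 256 CPM in parental and 294, 270 and 275 CPM in knockout libraries. The groups overlapped, and its log2 fold change of 0.10 (SE 0.046) had an edgeR adjusted p of 0.0782, which passed without parental replicate 1 (0.0288) and without the genes of chromosome 2 (0.0427). PSMB6, which cuts after acidic residues, had 292, 275 and 273 CPM against 288, 271 and 264 CPM. PSMB7, which cuts after basic residues, had 232, 224 and 231 CPM against 239, 225 and 224 CPM. Their log2 fold changes were -0.030 (SE 0.044) and 0.0014 (SE 0.041), and neither was past the threshold in edgeR. The 3 catalytic genes were highest in replicate 1 of both groups.

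PSMB3, another non-catalytic beta subunit, stood out by its spread. It had 74.3, 120 and 91.7 CPM in parental and 93.9, 89.9 and 95.9 CPM in knockout cells. The parental SD of 23.1 CPM on a mean of 95.4 CPM was far wider than the knockout SD of 3.07 CPM on 93.2 CPM. Parental replicate 2 was the highest and parental replicate 1 the lowest of the 6 libraries. The PSMB3 log2 fold change of -0.031 (SE 0.105) therefore has the widest interval of the constitutive beta genes.

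The immunoproteasome genes were the lowest expressed of the tested catalytic subunits and included both of the largest changes. PSMB9, which replaces PSMB6, had counts of 29, 31 and 39 in parental and 71, 81 and 62 in knockout libraries, or 0.846, 1.02 and 1.20 CPM against 1.84, 2.04 and 2.0 CPM. Every knockout library was above every parental library. PSMB9 rose by 0.94 on the log2 scale (SE 0.19, edgeR adjusted p 0.000466), a 1.91-fold rise from a very low level. PSMB8, which replaces PSMB5, had 1.95, 2.04 and 1.54 CPM in parental and 2.09, 1.73 and 1.61 CPM in knockout libraries, and the groups overlapped. Its log2 fold change was -0.016 with an interval from -0.36 to 0.32. PSMB8 and PSMB9 share 4.6% and 4.5% of their exon bases with each other on opposite strands. With PSMB8-AS1, PSMB8 shares 20.6% on the opposite strand and PSMB9 shares 5.7% on the same strand. The counts of PSMB9 and PSMB8-AS1 were not summed.

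PSMB10, which replaces PSMB7, went the other way. It had counts of 194, 154 and 179 in parental and 111, 113 and 82 in knockout libraries, or 5.66, 5.07 and 5.51 CPM against 2.87, 2.84 and 2.64 CPM. PSMB10 fell by 0.96 (SE 0.12, edgeR adjusted p 1.87e-06), and its knockout libraries were all below the parental range. PSMB10 (hg38 chromosome 16, 67934502 to 67937087, minus strand) shares 34.8% of its GENCODE exon bases with the protein-coding gene AC040162.1 on the same strand. AC040162.1 had 16, 19 and 24 counts in parental and 58, 45 and 30 in knockout libraries and rose by 0.99 (SE 0.25, edgeR adjusted p 0.0038), the opposite direction. How reads in the shared exons were assigned is not given in the sources used here. With the counts of both genes summed, the levels were 6.13, 5.69 and 6.25 CPM in parental and 4.37, 3.97 and 3.61 CPM in knockout libraries. The sum fell by 0.59 (SE 0.11, edgeR adjusted p 0.000242), a smaller change than that of PSMB10 alone, again with no overlap between groups.

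**Figure D2:**
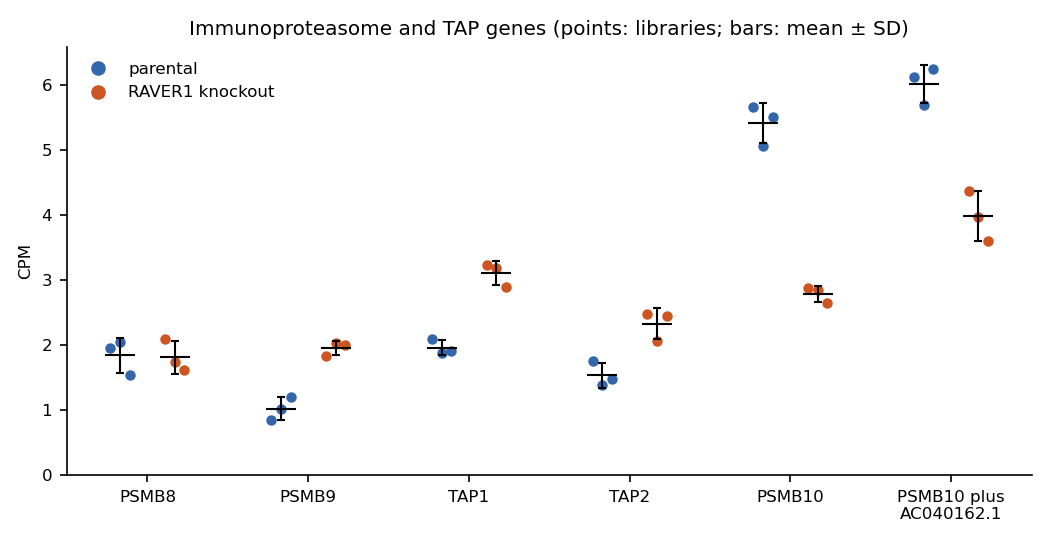
CPM of the immunoproteasome genes, of the neighbouring transporter genes TAP1 and TAP2, and of PSMB10 summed with AC040162.1, with 3 parental (blue) and 3 knockout (orange) libraries each and bars for mean ± SD. PSMB9, TAP1 and TAP2 are higher, PSMB10 is lower and PSMB8 overlaps between groups.

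Set against their constitutive counterparts per kilobase of gene model, the immunoproteasome subunits were minor in both groups. PSMB9 made up 0.125%, 0.161% and 0.190% of PSMB9 plus PSMB6 in parental cells and 0.276%, 0.325% and 0.327% in knockout cells. PSMB10 made up 2.62%, 2.42% and 2.56% of PSMB10 plus PSMB7 in parental and 1.30%, 1.37% and 1.28% in knockout libraries. The exact two-sided permutation test over libraries gave p = 0.1 for each of these 2 pairs, the smallest p that 3 against 3 libraries can give (0.15 adjusted over 3 pairs). PSMB8 made up 0.315% ± 0.048 (SD, n = 3) of PSMB8 plus PSMB5 in parental and 0.287% ± 0.028 in knockout libraries (exact permutation p = 0.4, also 0.4 when adjusted). PSMB11, the catalytic subunit of the thymus, had 2, 1 and 0 counts in parental and 0 in each knockout library and was not tested. Leukocytes carry immunoproteasomes, and their marker PTPRC had 0 to 2 counts per library and CD3E 0 in every library. The 6 leukocyte markers summed to 5.11 to 5.83 CPM in parental and 4.0 to 5.28 CPM in knockout cells. Nearly all of that came from CD14, the 1 marker with enough counts to be tested (edgeR log2 fold change -0.28, adjusted p 0.0704).

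PSMB8 and PSMB9 lie beside TAP1 and TAP2, the peptide transporter genes of antigen presentation, on chromosome 6. TAP1 had 2.1, 1.88 and 1.91 CPM in parental and 3.23, 3.19 and 2.90 CPM in knockout libraries and rose by 0.67 (SE 0.14, edgeR adjusted p 0.000779). TAP2 rose by 0.59 (SE 0.17, edgeR adjusted p 0.00751). Of the 10 tested genes on each side of PSMB9, leaving out members, 19 remained. Of these 3 were higher, TAP1 and TAP2 among them, and 3 lower, with a median of -0.055. The background over all tested genes was 21.3% higher and 20.1% lower. PSMB9 and TAP1 are read in opposite directions from start sites 487 bases apart. IRF1, an interferon-induced transcription factor known to act on this group, fell by 0.21 (SE 0.060, edgeR adjusted p 0.00765).

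The promoters of the interferon-responsive members are shown because these genes split by direction. Stretches of 80 bases around a start site (60 before to 20 after) were read 5′ to 3′ on the gene's strand from RefSeq promoters of GRCh38.p14. Matches to the letters of an interferon-stimulated response element on either strand (GAAA, any 2 bases, GAAA) are in capitals. Where a gene had several starts, the first whose 300-base window held these letters was chosen. PSMB8 has another start, farther upstream, whose window held none of them. For TAP1 the stretch runs from 160 to 81 bases before the start.
PSMB8 (chr6:32844028-32844107, minus strand): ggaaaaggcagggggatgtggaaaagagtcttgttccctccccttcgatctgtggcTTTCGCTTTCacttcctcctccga
PSMB10 (chr16:67936831-67936910, minus strand): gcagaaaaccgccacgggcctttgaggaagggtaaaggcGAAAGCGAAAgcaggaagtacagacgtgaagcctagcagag
PSME1 (chr14:24136134-24136213, plus strand): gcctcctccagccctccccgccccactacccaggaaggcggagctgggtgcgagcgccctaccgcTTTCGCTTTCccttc
PSME2 (chr14:24146591-24146670, minus strand): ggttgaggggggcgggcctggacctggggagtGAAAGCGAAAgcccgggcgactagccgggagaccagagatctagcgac
TAP1 (chr6:32853785-32853864, minus strand): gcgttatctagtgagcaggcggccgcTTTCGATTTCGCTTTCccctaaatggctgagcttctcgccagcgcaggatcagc
The 300-base window of PSMB9 held no such letters, and those of the TAP1 stretch come to within 354 bases of the PSMB9 start. Of the 4 members shown, PSMB10, PSME1 and PSME2 fell and PSMB8 was not past the threshold; TAP1, which is not a member, rose.

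Promoters of 42 of the 48 members were matched by symbol, 51 windows of 300 bases in all. The response element letters were in 13.7% of them against 3.2% of 22199 protein-coding promoters, the other members with a match being PSMA4, PSMB4 and PSMG4. Of the 7 members with these letters 0 were higher, 3 were lower and 4 were not past the threshold in edgeR. Among all 42 matched members 10 were higher, 4 lower and 26 not past it, and 2 were not tested. The background over all tested genes was 21.3% higher and 20.1% lower, and 7 members are too few to set a share against it. The letters TGACNNNGC, the core of the antioxidant response element that NFE2L1 and NFE2L2 bind, were in 29.4% of member promoters against 13.8% of all. The 15 members with these letters included 4 that were higher (PSMB9, PSMD1, PSME4, PSMG1), 2 that were lower (PSME1, PSME2) and 9 not past the threshold. Over all tested genes 41.4% were past it, and 15 members are too few to set a share apart from that. PSMD1 and PSME4 are on chromosome 2, where most genes were higher. The other letters read were also more frequent in member promoters than in all. CCGGAAG (ETS site) was in 29.4% against 12.8%, TTCNNNGAA (GAS) in 15.7% against 6.8% and CCAAT in 39.2% against 34.7%. A higher share was thus not particular to the antioxidant or interferon response element letters. A match describes the sequence and does not show binding.

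Activators moved apart. PSME1 and PSME2 encode the subunits of the interferon-inducible ring that opens the core without ATP, and both were lower. PSME1 had 150, 144 and 142 CPM in parental and 132, 121 and 119 CPM in knockout libraries and fell by 0.23 (SE 0.047, edgeR adjusted p 0.000657). PSME2 had 125, 125 and 122 CPM against 114, 111 and 109 CPM and fell by 0.15 (SE 0.042, edgeR adjusted p 0.00663). For each, every knockout library was below the parental range, though the PSME2 call was lost without knockout replicate 3 (adjusted p 0.0555). They lie close together on chromosome 14 (hg38 starts 24136158 and 24143362). Of the 19 tested neighbours of PSME1 that are not members, 6 were lower and 2 higher, with a median of 0.0020. Over all tested genes 20.1% were lower and 21.3% higher. PSME3, the nuclear activator, was the most abundant of the family in CPM and stood at 0.0092 (SE 0.044). PSME4, the large activator of the nucleus known from sperm development and DNA repair, rose and is described with chromosome 2. PSMF1, an inhibitor of the core in vitro, stood at 0.052 (SE 0.044), not past the threshold in edgeR.

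**Figure D3:**
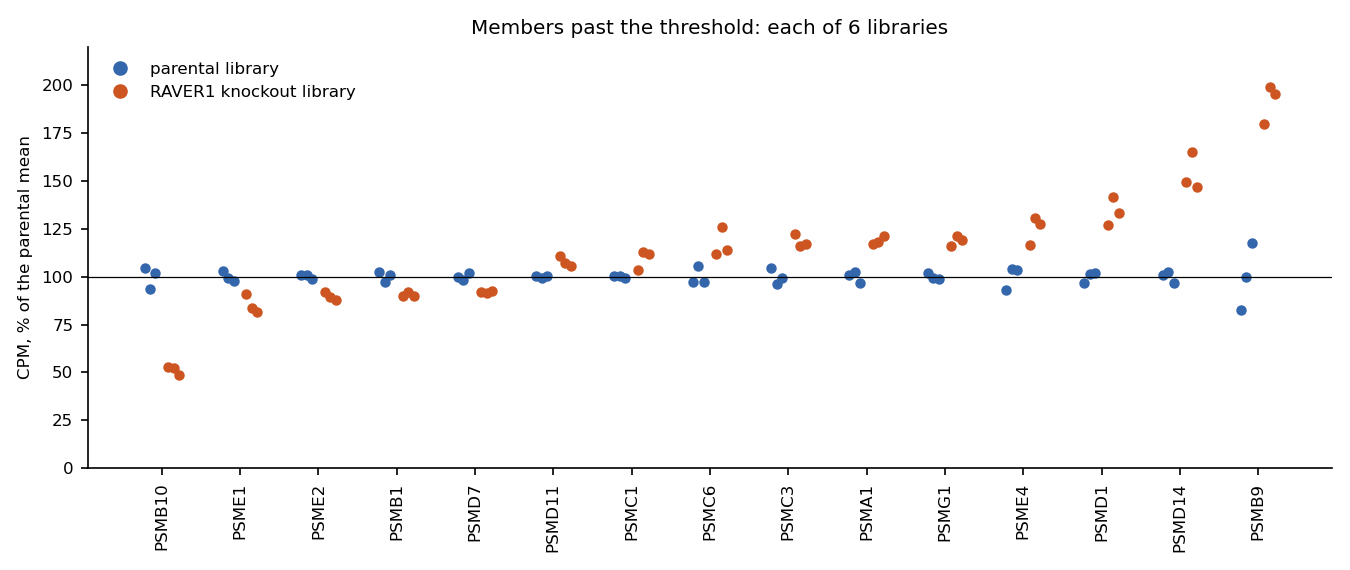
CPM of the 15 members past the threshold as a percent of the parental mean, ordered by fold change, with 1 point per library (blue parental, orange knockout). The groups do not overlap for any of the 15, beside 50.2% of all tested genes. The 15 were picked by adjusted p from these same libraries, so the separation is no further support. PSMB10 and PSMB9 stand at the ends.

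Of the 17 genes of the 19S cap 6 were higher and 1 lower, with a median of 0.054. That is 41.2% called, beside the background of 41.4%. Without the 2 on chromosome 2 there were 4 higher and 1 lower of 15, with a median of 0.041, or 33.3% called beside 39.1% of tested genes outside that chromosome. The cap was thus called at about the rate of other genes in both directions together. By direction it was 35.3% higher and 5.9% lower, beside 21.3% and 20.1% of all tested genes. Outside chromosome 2 it was 26.7% higher and 6.7% lower, beside 18.0% and 21.1%. In the base, the ATPase genes PSMC1, PSMC3 and PSMC6 rose while PSMC2, PSMC4 and PSMC5 lay between -0.028 and 0.026. PSMC3 had 240, 221 and 229 CPM in parental and 281, 266 and 269 CPM in knockout libraries, a rise of 0.24 (SE 0.043, edgeR adjusted p 0.000142). PSMC6 had 58.3, 63.5 and 58.4 CPM against 67.1, 75.7 and 68.3 CPM, a rise of 0.23 (SE 0.056, edgeR adjusted p 0.00284). Neither overlapped between groups, and knockout replicate 2 was the highest library for PSMC6 and knockout replicate 1 for PSMC3. PSMC1 had 140, 141 and 139 CPM against 145, 157 and 157 CPM and rose by 0.13 (SE 0.044, edgeR adjusted p 0.0241).

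The PSMC1 call was lost with upper-quartile scaling (adjusted p 0.0916) and without any 1 library other than knockout replicate 1 (0.0509 to 0.126). PSMC1 shares 75.8% of its exon bases with NRDE2 on the opposite strand, so its counts depend on a strand setting that the sources used here do not give. Of the base genes without ATPase activity, the scaffold PSMD2, the most abundant member in CPM, had 552, 527 and 538 CPM in parental and 612, 556 and 562 CPM in knockout libraries. Its groups did not overlap, and its log2 fold change of 0.098 (SE 0.043) had an edgeR adjusted p of 0.0807. PSMD2 passed without the genes of chromosome 2 (adjusted p 0.0440) or without knockout replicate 2 (0.0496). The ubiquitin receptor PSMD4 stood at -0.029 (SE 0.042). ADRM1, the other ubiquitin receptor of the base, whose symbol lies outside the PSM series, rose by 0.18 (SE 0.048, edgeR adjusted p 0.00463).

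In the lid, PSMD11 rose and PSMD7 fell, both by little. PSMD11, a scaffold subunit known to promote assembly of the full particle, had 340, 336 and 339 CPM in parental and 375, 363 and 358 CPM in knockout libraries, a rise of 0.11 (SE 0.038, edgeR adjusted p 0.0277). PSMD7, the inactive partner of the deubiquitinase PSMD14, had 150, 148 and 153 CPM against 138, 138 and 139 CPM and fell by 0.12 (SE 0.040, edgeR adjusted p 0.023). Neither overlapped between groups. The PSMD11 call was lost with upper-quartile scaling (adjusted p 0.141), without the low-count filter (0.0548), or without any 1 of parental replicates 1, 2 and 3 or knockout replicate 3 (0.0503 to 0.117). The PSMD7 call was lost without the filter (0.0657), without chromosome 2 (0.0507), or without parental replicate 1 or 3 or knockout replicate 2 or 3 (0.0573 to 0.0952). The other lid genes outside chromosome 2, PSMD3, PSMD6, PSMD8, PSMD12 and PSMD13, ranged from -0.0051 to 0.081. SEM1, the smallest lid subunit, also named outside the series, stood at -0.12 (SE 0.050, edgeR adjusted p 0.0634).

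The 3 members on chromosome 2 were all higher, in every knockout library. PSMD14, the lid enzyme that strips ubiquitin from substrates (hg38 chromosome 2, 161308038 to 161411717, plus strand), had 80.3, 81.5 and 77.2 CPM in parental and 119, 132 and 117 CPM in knockout libraries. It rose by 0.62 (SE 0.051, edgeR adjusted p 9.67e-09), or 1.54-fold. PSMD1, the large scaffold of the base (231056864 to 231172827, plus strand), had 158, 165 and 167 CPM against 208, 231 and 218 CPM and rose by 0.42 (SE 0.045, edgeR adjusted p 4.16e-07). PSME4 (53864067 to 53970840, minus strand) had 81.7, 91.3 and 91.0 CPM against 103, 115 and 112 CPM and rose by 0.32 (SE 0.054, edgeR adjusted p 9.61e-05). Knockout replicate 2 was the highest library for all 3.

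Across chromosome 2 as a whole 66.8% of 1125 tested genes were higher, with a median log2 fold change of 0.42, so a rise there is the common case. PSME4 ranked at percentile 39.9, PSMD1 at 50.5 and PSMD14 at 75.3 of 1109 tested chromosome 2 genes with a GENCODE position. The 3 genes lie far apart on the chromosome. The 20 tested neighbours of each, 10 on either side, had medians of 0.20 (PSME4), 0.43 (PSMD14) and 0.40 (PSMD1). The 43 tested members on other chromosomes had a median of -0.0090, with 7 higher and 5 lower, or 27.9% called beside 39.1% of all 15527 tested genes outside chromosome 2. Per library, the median deviation of the chromosome 2 members from their parental mean was 0.35, 0.50 and 0.41 on the log2 scale in knockout replicates 1, 2 and 3, and that of the other members lay between -0.023 and 0.012. DNA copy number was not analysed here. In the lid, PSMD14 rose 1.54-fold while its partner PSMD7 stood at 0.92-fold.

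**Figure D4:**
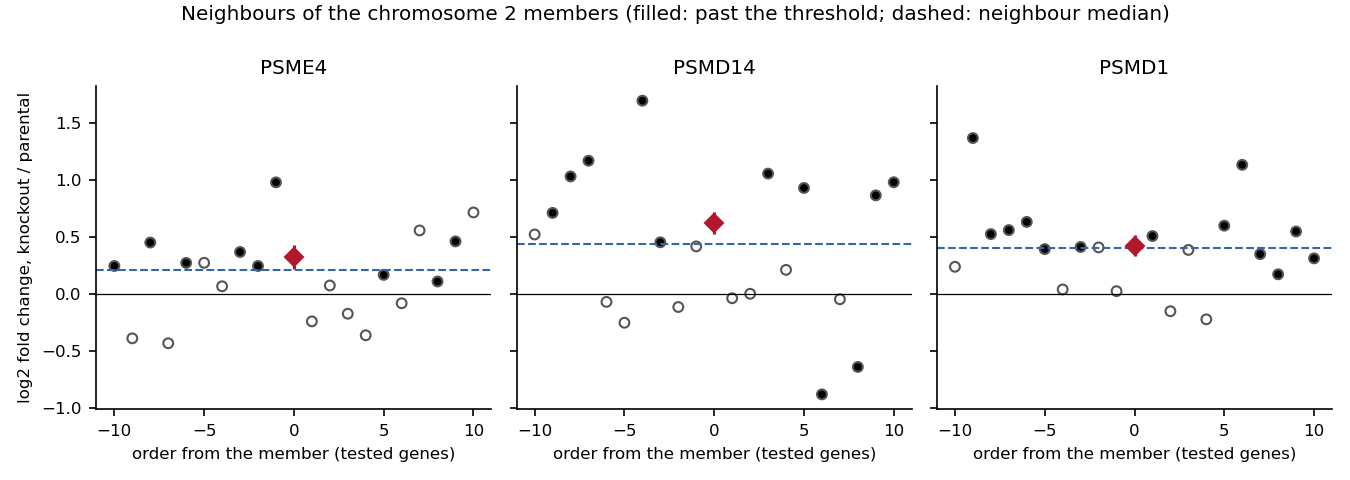
Log2 fold change of 10 tested genes on each side of each chromosome 2 member, by order along the chromosome. The member is a red diamond (bar: approximate 95% interval), filled points are past the threshold and a dashed line marks the neighbour median. The medians are 0.20, 0.43 and 0.40, and each member lies on the positive side with most of its neighbours.

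Of the 7 assembly factors 1 was higher and 0 were lower, with a median of -0.048. That is 14.3% called, beside the background of 41.4%. PSMG1, which with PSMG2 guides the alpha ring together, had 43.6, 42.6 and 42.4 CPM in parental and 49.8, 52.0 and 51.0 CPM in knockout libraries, and rose by 0.25 (SE 0.051, edgeR adjusted p 0.000638) with no overlap. PSMG2, its partner, had 45.2, 46.6 and 45.1 CPM against 42.7, 43.9 and 42.0 CPM, a log2 fold change of -0.090 (SE 0.052) that was not past the threshold in edgeR (adjusted p 0.181). PSMG3 and PSMG4, the partners of the next assembly step, stood at -0.039 and -0.12 and were not past the threshold. POMP, the maturation factor of the beta ring, stood at 0.046 (SE 0.048, edgeR adjusted p 0.477). The base chaperones PSMD5, PSMD9 and PSMD10 lay between -0.088 and -0.0084, none past the threshold, though PSMD10 passed with upper-quartile scaling (-0.12, edgeR adjusted p 0.0487).

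Levels per kilobase of gene model kept their order between groups. Across the 46 tested members Spearman's rho of parental and knockout means was 0.996, given as a description over genes that share libraries. PSMB6 (193 CPM per kilobase), PSMA7 (173), PSMB5 (168), PSMC4 (163) and PSMD8 (152) were the highest in parental cells, and PSMB9 (0.306), PSMB8 (0.530), PSMA2 (0.806) and PSMG4 (1.14) the lowest of those tested. PSMA2 and PSMA6 (3.09) were low for subunits that every core contains. Both share exon bases with a longer protein-coding gene on the same strand (14.6% and 14.1%), as do PSMA1 (24.7%) and PSMD9 (14.9%), and those longer genes had 0 to 3 counts per library. A pseudogene of PSMA6 held 32.1% as many counts as PSMA6 itself over the 6 libraries, the largest such share. Among 35 pseudogenes named after members, 14 had at least 20 counts in all. The gene model length in the table includes exons that few transcripts use, so levels of different genes are approximate.

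**Figure D5:**
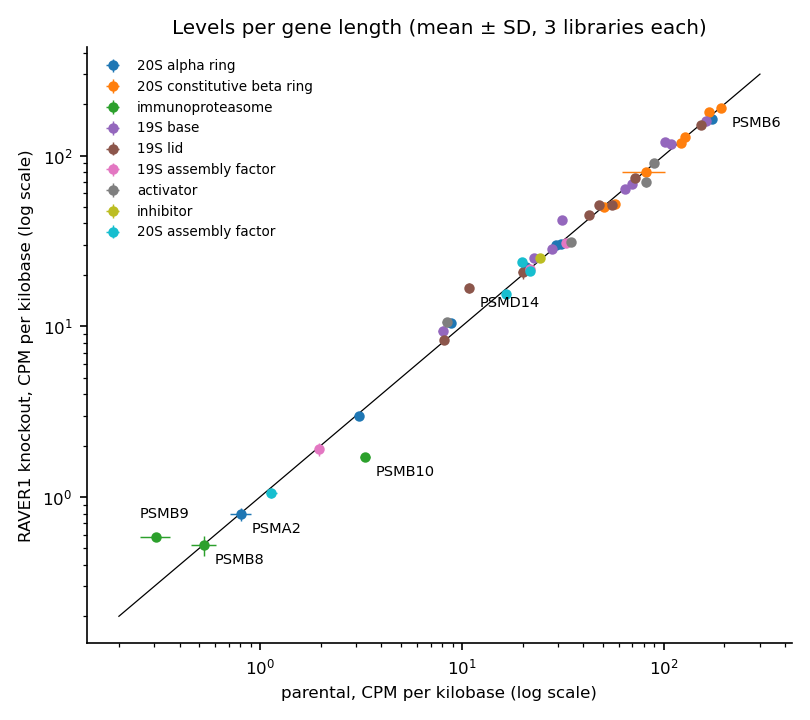
Mean level of each tested member per kilobase of gene model in parental (x) and knockout (y) cells, both on log axes in CPM per kilobase, coloured by role, with SD bars over 3 libraries and a line of equality. Most points lie on the line; PSMB9 and PSMD14 are above it and PSMB10 is below.

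The wider pathway moved little at its median as well. Of 37 related genes from ubiquitin supply, substrate delivery, proteasome control and antigen presentation, 9 were higher and 3 lower, with a median of 0.046. That is 24.3% higher and 8.1% lower, beside the background of 21.3% and 20.1%. Their log2 fold changes ran from -0.22 (PAAF1) to 0.67 (TAP1), and all 3 on chromosome 2 were higher. NFE2L1, which drives subunit genes when proteasomes are short, had 350, 343 and 347 CPM in parental and 357, 345 and 342 CPM in knockout libraries, a log2 fold change of 0.0052 (SE 0.038, edgeR adjusted p 0.931). NFE2L2, on chromosome 2, rose by 0.31 (SE 0.062, edgeR adjusted p 0.00044). RAD23B, a shuttle factor that carries ubiquitinated substrates to the cap, rose by 0.17 (SE 0.042, edgeR adjusted p 0.00326). PAAF1, which holds base ATPases apart from the core, fell by 0.22 (SE 0.062, edgeR adjusted p 0.00726).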

How the data were processed

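PolyA RNA was extracted with TRIzol and prepared with a strand-preserving Illumina kit, per the labels' protocols. Per the submitters' processing notes, the tools were cutadapt 2.8, HISAT2 2.1.0 (build hg38), SAMtools 1.10 and featureCounts 2.0.0. The authors deposited raw counts per gene with each gene's length. No source used here names the annotation release, the strand setting or the handling of multi-mapped reads. Library titles gave the groups, with 3 biological replicates each per the series' design text. Whether these were separate cultures is not said, so p-values measure the spread between these libraries only.

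All 60624 genes entered edgeR 4.0.16 (R 4.3.3), of which 16652 passed filterByExpr. TMM scaling and the quasi-likelihood F-test with Benjamini-Hochberg adjustment over the tested genes followed. SEs came from fold change and F. In counts simulated for this comparison (16421 genes), the fit recovered 0 of 50 genes at a 1.1-fold change. It recovered 27 of 50 at 1.25-fold, 36 of 50 at 1.5-fold and 42 of 50 at 2-fold, and called 9 of 16223 unchanged genes. Far fewer genes changed in the simulation than were called in the data, so these rates are not the real fit's detection limit. Positions and overlaps came from GENCODE 29, of the same build. Its exon bases equalled the deposited gene length for some members (PSMA1, 3301) and differed for others. PSMB10 had 1853 against 1626 deposited and PSMB8 2997 against 3480. The overlap percents may therefore differ from those of the gene models that were counted. Alternatives were other scalings, filters, a replicate block, DESeq2 1.42.0, limma-voom (3.58.1), stricter thresholds, leaving out chromosome 2 or each library, and, added after seeing the data, summing overlapping genes. Members, lists and neighbours were chosen with earlier results of these data known. Values per library are printed for members past the threshold, the catalytic pairs, PSME1, PSME2 and chromosome 2 members. Of the related genes, NFE2L1, POMP, ADRM1, SEM1, IRF1, TAP1 and the 6 others of lowest adjusted p were to be named; some genes of this rule are not reported here. PSMB3, PSMD2, PSMG2 and AC040162.1 were named after their values were seen. Epithelial, leukocyte, endothelial and fibroblast markers were listed.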

Additional observations from a re-analysis of the deposited data

How the results depend on the processing

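The number of members higher in knockout cells lay between 7 (counting members outside chromosome 2 alone) and 14 (replicate block), against 10 with the main settings. The number lower was 3 at an adjusted p under 0.01 and 2 to 5 when 1 library was left out (2 without knockout replicate 3, 3 without parental replicate 1), against 5. PSME4, PSMD14, PSMD1, PSMB9, PSMB10, PSMA1, PSMC3, PSMC6, PSME1 and PSMG1 kept their call in every setting that tested them, and PSMB1, PSME2, PSMC1, PSMD7 and PSMD11 did not. No called member changed sign. The median log2 fold change of all genes moved by less than 0.1 in every setting. Upper-quartile scaling moved it most, from 0.0019 to -0.031, and gave 8 members higher and 7 lower. That shift is not negligible beside the members' median absolute value of 0.070. Without scaling for length, the PSMB9 share of its pair differed by 0.345 percentage points and the PSMB10 share by -1.11 (0.150 and -1.21 with scaling). With AC040162.1 added to PSMB10 the difference was -0.937. The replicate block gave 14 members higher and 7 lower, adding PSMA5, PSMB5, PSMD2 and PSMD13 (higher) and PSMA7 and PSMD10 (lower), with edgeR adjusted p values from 0.00128 to 0.0279. Same-numbered libraries correlated at 0.129, 0.0293 and 0.0142 in their deviations, so the numbers are not known to pair them, and not every library correlated best with its own number. Counts below about 100 per library limit PSMB8 and PSMB9. In simulated data 0 of 50 genes changed 1.1-fold were recovered, but far fewer genes changed there than in the real data. The real fit called members with smaller changes, such as PSMD11 (1.08-fold) and PSMD7 (0.92-fold).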

Other observations

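Of 4 fibroblast markers, 1 had enough counts to be tested: COL1A1, a collagen gene, was higher (edgeR log2 fold change 0.45), and DCN had a count of 0 in every library. The 3 endothelial markers summed to at most 0.103 CPM in any library, and none could be tested.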
